A study of Mus musculus with 5 samples.

Results

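Described here are 9 genes of microglia, the resident macrophages of the brain, in primary mouse astrocyte cultures: P2ry12, Tmem119, Cx3cr1, Csf1r, Gpr34, Fcrls, Slco2b1, Gpr84 and Laptm5. They were chosen by name from the 18783 genes of the authors' deposited table, selected on their lower group mean in cultures given amyloid-β (Aβ) than in untreated ones, so that fall is a description here and supports nothing. The cultures came from C57BL/6 pups of age P0-P1, were grown in medium with horse and fetal bovine serum, and all were harvested on day 12 in vitro. Control cultures were untreated (2 libraries), Aβ cultures received 1 µM Aβ for 5 days from day 7 (2 libraries), and Aβ+DFMO cultures received 1 µM Aβ with 50 µM DFMO, an inhibitor of ornithine decarboxylase, for the same time (1 library). Nothing in the labels tells separate cultures from repeat libraries, so p-values measure only a spread between libraries that may be technical. Each gene has 1 normalized mean per group, with no value per library, so overlap of the groups could not be examined.

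Microglia are kept alive by signalling through the receptor CSF1R, whose ligands are CSF1 and IL-34, and in the healthy brain they hold a resting state marked by high P2ry12, Tmem119 and Cx3cr1. That state depends on transforming growth factor β and on transcription factors such as PU.1 (encoded by Spi1), a member of the ETS family. In phagocytes around amyloid plaques, genes of the resting state are known to be low and genes of lipid handling and lysosomes to be high. Cultures of astrocytes from newborn brain usually keep some microglia. Bulk RNA cannot tell fewer microglia from less of a transcript in each microglial cell.

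The label of resting microglia receptors fits these genes only in part. P2ry12, Gpr34, Cx3cr1 and Gpr84 encode G-protein-coupled receptors, and Csf1r a receptor tyrosine kinase. Fcrls encodes a scavenger receptor-like protein related to Fc receptors and Tmem119 a membrane protein. Slco2b1 encodes a transporter of organic anions and Laptm5 a membrane protein of lysosomes in blood and myeloid cells, so neither is a receptor. Gpr84, a receptor for medium-chain fatty acids, is best known for its induction in inflamed myeloid cells and not for the resting state.

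Because the 9 genes move in the same direction by choice, the bases before their transcription starts are shown for the members whose sequence holds the letters of an ETS factor site. RefSeq promoters of the build GRCm38.p6 were matched for 6 of the 9 genes, and Tmem119, Csf1r and Gpr34 had no entry. The 120 bases before the RefSeq start are printed 5′ to 3′ on the gene's strand, with the letters GGAAGT, or their reverse complement, in capitals. In GENCODE M21 the genes Fcrls, Laptm5, Gpr84 and Cx3cr1 reach further upstream, so their printed bases lie inside the gene as annotated there. Those of P2ry12 lie outside it.
P2ry12, chr3:59262986-59263105, minus strand: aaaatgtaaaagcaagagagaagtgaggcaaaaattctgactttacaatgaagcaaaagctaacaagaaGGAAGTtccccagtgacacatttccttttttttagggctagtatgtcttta
Fcrls, chr3:87263525-87263644, minus strand: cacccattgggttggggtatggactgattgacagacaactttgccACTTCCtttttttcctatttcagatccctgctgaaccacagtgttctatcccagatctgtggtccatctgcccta
Laptm5, chr4:130913196-130913315, plus strand: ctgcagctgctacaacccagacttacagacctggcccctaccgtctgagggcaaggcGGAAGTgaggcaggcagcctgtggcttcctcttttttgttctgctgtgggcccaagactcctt
Gpr84, chr15:103310439-103310558, minus strand: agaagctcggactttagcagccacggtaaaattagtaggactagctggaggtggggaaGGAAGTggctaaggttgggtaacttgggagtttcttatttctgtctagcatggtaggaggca
Cx3cr1, chr9:120068297-120068416, minus strand, shown as a promoter without these letters: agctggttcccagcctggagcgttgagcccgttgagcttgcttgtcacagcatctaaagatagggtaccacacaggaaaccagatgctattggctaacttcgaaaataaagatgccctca

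The letters GGAAGT, searched on both strands, stood in 4 of the 6 members with an entry and in 11.6% of all 32851 RefSeq promoters over the same 120 bases. Over 250 bases they stood in the same 4 members and in 19.7% of all promoters. Counted back from the start, the match began at base 51 in P2ry12, 63 in Laptm5, 62 in Gpr84 and 75 in Fcrls. Over the 250 bases before the start the longer PU.1 letters GAGGAAG, which share GGAAG with the first motif, were found in Fcrls, Laptm5 and 1 of the 3 promoters of Slco2b1, against 10.6% of all promoters. Within 120 bases they were found in Laptm5 only, against 5.52% of all promoters. The RUNX letters TGTGGT stood in Fcrls, Slco2b1 and Cx3cr1 over either window (14.0% of all promoters over 250 bases and 6.72% over 120). In Slco2b1 they too were in 1 of its 3 promoters. Members were counted by gene, with a match in any promoter, whereas the percentages are of single promoters, so the shares are not on the same scale. Over 250 bases the E-box CACGTG occurred in P2ry12 (6.02% of all promoters), and the AP-1 letters TGANTCA in none of the 6 (6.75% of all promoters). The E-box stood in no member over 120 bases (3.66% of all promoters). The motifs were chosen after the data were seen, and the matches describe letters in a window and were not tested for binding.

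Depth and the other cells of the cultures bear on every value. The Aβ+DFMO library held 4825677 reads, 84.4% of them within exons, and the totals of the other 4 libraries, which could not be matched to single labels, were not used here. All 9 astrocyte markers examined, among them Gfap and Slc1a3, were measured, and the authors' deposited table gives them summed means of 159749 in Control, 159441 in Aβ and 126787 in Aβ+DFMO. None of 6 lymphocyte and neutrophil markers had a value there, and neither had the microglia markers Siglech and Crybb1. In Aβ against Control the authors' DESeq2 test called 0 of 9 astrocyte, 7 oligodendrocyte lineage, 5 neuron, 3 endothelial and 5 fibroblast and mural markers and 4 cell cycle genes, of which 2 in all had an unadjusted p under 0.05. In Aβ+DFMO against Aβ 3 astrocyte and 6 oligodendrocyte lineage markers fell, 1 neuron marker rose and 1 fell, 2 cell cycle genes rose, and no endothelial or fibroblast and mural marker was called. That comparison followed the GC content of genes, as given further on, and with the GC trend taken out the calls were 4 astrocyte and 3 oligodendrocyte lineage markers lower, 1 fibroblast or mural marker higher and 0 neuron markers and cell cycle genes. The median of the oligodendrocyte lineage markers then moved from −1.17 to −0.74. That of the 9 astrocyte markers moved the other way, from −0.26 to −0.39, although Gfap moved from −0.47 to −0.15.

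Per kilobase of merged exon, the scale on which genes can be compared, the Control means of the 9 genes ran over a wide range. Fcrls stood at 1206, Laptm5 at 1053 and Cx3cr1 at 989 normalized units per kilobase in Control, computed from the authors' deposited table. Csf1r followed at 427 and Gpr34 at 149, then Tmem119 at 89.8, P2ry12 at 82.2, Gpr84 at 46.8 and Slco2b1 at 28.6 on the same scale in Control. The order in Aβ was the same but for Laptm5 (731 per kilobase), which stood above Fcrls (435). With no spread within a group, neighbours in this order such as Fcrls and Laptm5, or Tmem119 and P2ry12, cannot be shown to differ.

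The first comparison asked what Aβ changed in the cultures, and it is the contrast on which the genes were picked. All 9 means were lower in Aβ, between 24.6% of Control for Gpr84 and 69.4% for Laptm5, and the median log2 ratio of the 9 was −1.37, against 0.002 over all genes. The authors' DESeq2 test put 8 of the 9 under an adjusted p of 0.05, where 0.176% of all genes were called lower. A log2 ratio under −1 was found for 7 of the 9 and for 0.623% of all genes. As the genes were picked on this contrast, nothing is read from either count.

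**Figure D1:**
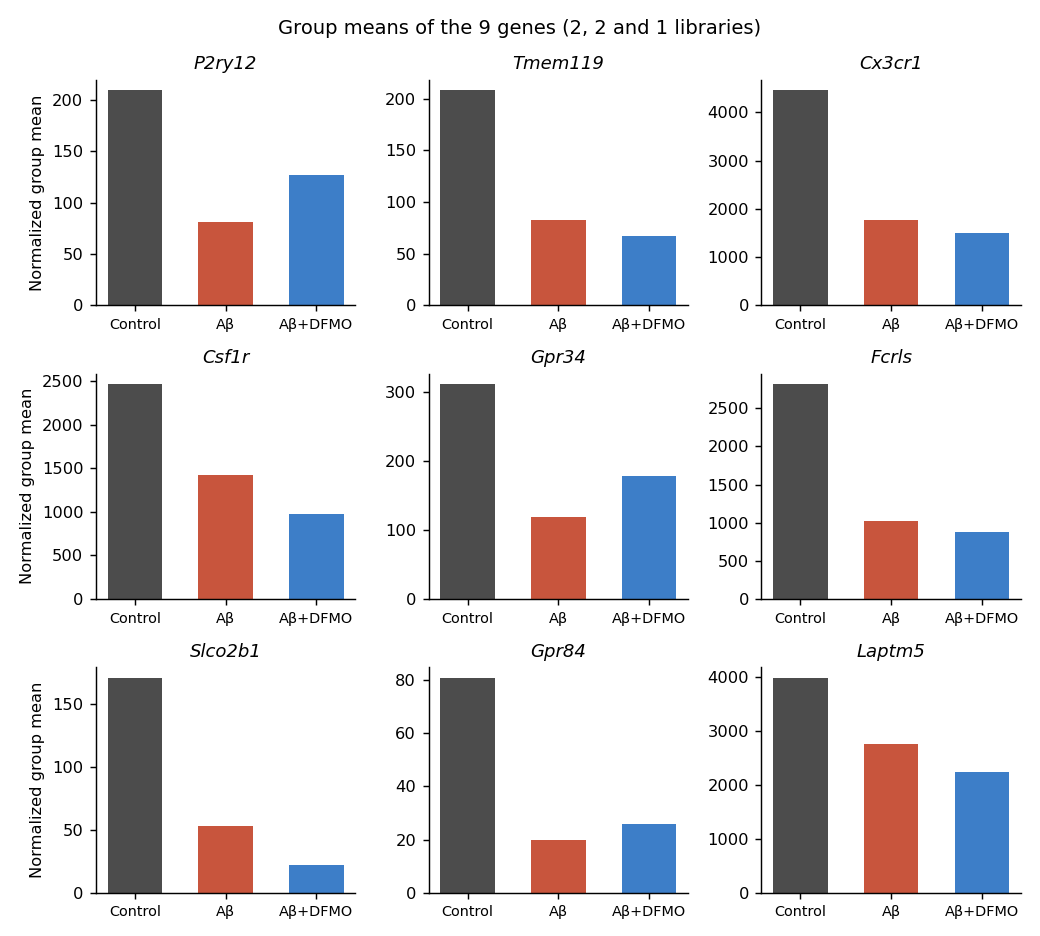
Normalized group mean of each gene (y axis, own scale per panel, from 0) in Control (2 libraries), Aβ (2 libraries) and Aβ+DFMO (1 library); bars are the authors' means and have no error. All 9 genes stand lower in Aβ than in Control, and P2ry12, Gpr34 and Gpr84 stand higher in Aβ+DFMO than in Aβ.

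Among the G-protein-coupled receptors, P2ry12 senses ADP and steers microglial processes to sites of injury. For P2ry12 the authors' deposited table gives a mean of 209 in Control, 80.9 in Aβ and 127 in Aβ+DFMO. Its Aβ mean was thus 38.6% of Control, or −1.37 on the log2 scale. Its implied standard error, obtained by dividing the log2 ratio by the normal deviate that matches the authors' two-sided p, was 0.289. Gpr34, a receptor for lysophosphatidylserine, followed the same order, at 312, 119 and 179 in the authors' deposited table. For both genes Control was highest and Aβ lowest, with the Aβ+DFMO library between them. Gpr34 had a log2 ratio of −1.39 (implied standard error 0.268) in Aβ against Control in the authors' deposited table.

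Cx3cr1, the receptor of the neuronal chemokine CX3CL1, stands in the authors' deposited table at 4455 in Control, 1773 in Aβ and 1498 in Aβ+DFMO. The log2 ratio of Cx3cr1 equalled that of Tmem119 (−1.33), but its implied standard error was 0.365 and it was the single member not called (adjusted p = 0.0893, authors' DESeq2 test). Gpr84 had the lowest level of the 4 receptors and the largest fall of the 9 genes, from 80.7 in Control to 19.8 in Aβ, with 25.7 in Aβ+DFMO. The authors' deposited table puts this fall at −2.03 on the log2 scale (implied standard error 0.502).

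Csf1r, on which microglia depend for survival, has means of 2463 in Control, 1418 in Aβ and 981 in Aβ+DFMO, as the authors' deposited table gives them. The log2 ratio of Csf1r in Aβ against Control was −0.80 (implied standard error 0.124), closer to 0 than in any of the 4 G-protein-coupled receptors. Laptm5 had the smallest fall, with means of 3988, 2769 and 2236 and a log2 ratio of −0.53 (implied standard error 0.0992) in the authors' deposited table. In both genes the Aβ+DFMO library was the lowest of the 3 groups.

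Fcrls, one of the genes that set microglia apart from other macrophages, has means of 2814 in Control, 1016 in Aβ and 872 in Aβ+DFMO by the authors' deposited table. Tmem119 has 208, 82.5 and 67.1 in the same order of groups, again by the authors' deposited table. Aβ against Control gave log2 ratios of −1.47 for Fcrls (implied standard error 0.361) and −1.33 for Tmem119 (0.304). Slco2b1 stands in the authors' deposited table at 170.4 in Control, 52.6 in Aβ and 22.4 in Aβ+DFMO. Its Aβ mean was 30.9% of Control, or −1.69 on the log2 scale (implied standard error 0.388). All 3 genes stood highest in Control and lowest in Aβ+DFMO.

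The size of the fall differed among the members, as a description. The 95% intervals from the implied standard errors were −1.04 to −0.55 for Csf1r and −0.72 to −0.33 for Laptm5. That of Laptm5 did not reach those of P2ry12 (−1.94 to −0.81), Tmem119 (−1.93 to −0.74), Gpr34 (−1.91 to −0.86), Fcrls (−2.18 to −0.76), Slco2b1 (−2.45 to −0.93) or Gpr84 (−3.01 to −1.04). The interval of Cx3cr1, −2.05 to −0.61, overlapped that of every other member. Between the other 6 genes, P2ry12, Tmem119, Gpr34, Fcrls, Slco2b1 and Gpr84, all intervals overlapped. The genes share their libraries and were picked on this contrast, so no test of these differences is given.

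**Figure D2:**
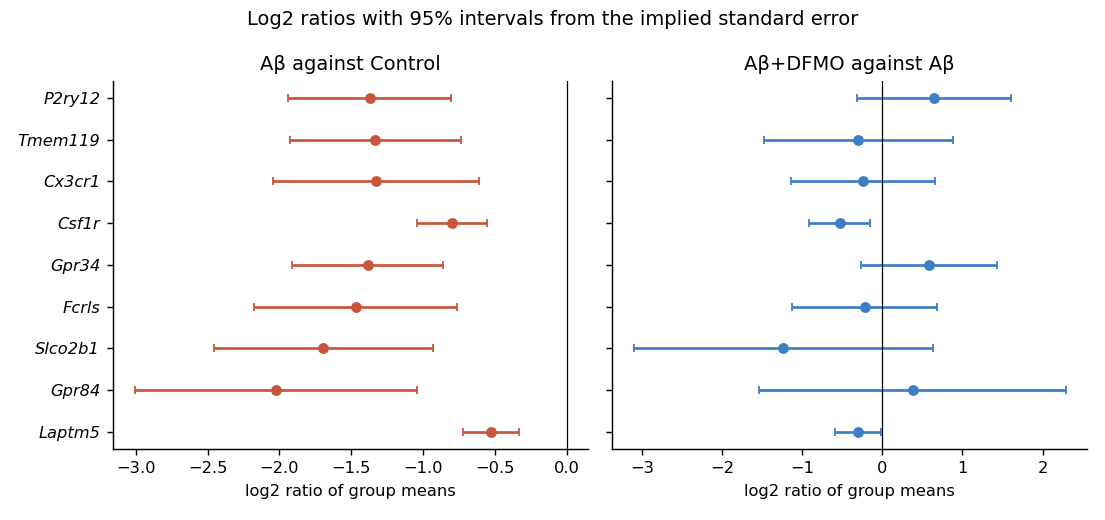
Log2 ratio of group means (x axis) for each gene, with 95% intervals from the implied standard error as bars, for Aβ against Control (left) and Aβ+DFMO against Aβ (right). Csf1r and Laptm5 show the narrowest intervals and the smallest falls on the left, and on the right 7 of the 9 intervals include 0.

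Cx3cr1 and Fcrls differ from the other members in the spread that the authors' model gave them. Precision normally follows the level of a gene, and the median implied standard error of the 500 genes nearest in mean was 0.0904 for Cx3cr1 and 0.10 for Fcrls. Theirs were 4.04 and 3.60 times as large, above 99.4% of those genes for Cx3cr1 and above all 500 for Fcrls. In the other 7 members the factor lay between 1.05 (P2ry12) and 1.24 (Csf1r). By rank these 7 also lay high, above 79.4% (P2ry12) to 99.4% (Slco2b1) of the 500 genes nearest to each in mean. The factor, and not the rank, thus sets Cx3cr1 and Fcrls apart. Csf1r, with a Control mean close to that of Fcrls, thus had an implied standard error of 0.124 where Fcrls had 0.361. Values per library were not used here, so which libraries differed in Cx3cr1 and Fcrls was not examined.

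**Figure D3:**
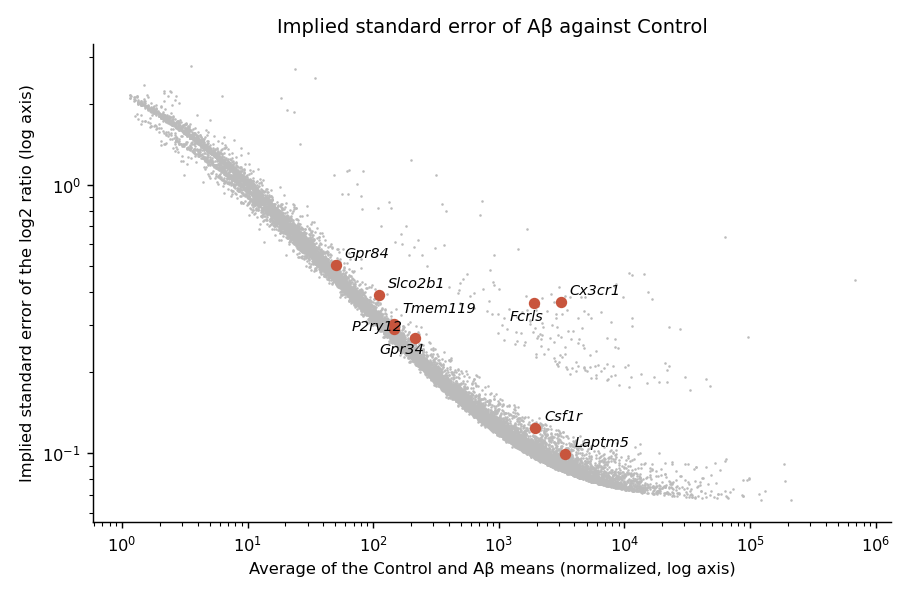
Implied standard error of the log2 ratio of Aβ against Control (y axis, log scale) against the average of the Control and Aβ means (x axis, log scale) for all 18783 genes (grey) and the 9 members (red). Cx3cr1 and Fcrls lie 4.04 and 3.60 times above the median of genes of like mean, and the other 7 members lie 1.05 to 1.24 times above it.

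Position and overlap with other genes can affect these counts, since no source used here says whether reads were counted by strand. In GENCODE M21 (GRCm38), P2ry12 (chromosome 3, 59216272 to 59262871, minus strand) lies within Med12l on the opposite strand and shares 9 exon bases with it. Med12l had a log2 ratio of 0.20 in Aβ against Control in the authors' deposited table. Gpr34 (chromosome X, 13632089 to 13640858, plus strand) lies within Cask on the opposite strand with no shared exon base, and Cask had a log2 ratio of −0.004 in the authors' deposited table. Neither host gene passed the authors' DESeq2 test. Gpr84 shares 681 exon bases with the antisense gene Gm49482 and Slco2b1 shares 471 with Gm15635, and neither antisense gene had a value here. Csf1r shares 873 exon bases with Hmgxb3 on the opposite strand, whose log2 ratio was −0.05 in the authors' deposited table.

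P2ry12 stands in a cluster of related nucleotide receptor genes on chromosome 3. P2ry13, its neighbour at 59207892 to 59210882 and likewise a receptor for ADP, stands in the authors' deposited table at 125 in Control, 52.9 in Aβ and 67.1 in Aβ+DFMO. Aβ against Control gave −1.24 for P2ry13 without passing (adjusted p = 0.181, authors' DESeq2 test). P2ry14, the receptor for UDP-glucose at 59113855 to 59153618, had means of 375, 443 and 641 in the authors' deposited table, so that its Control mean was the lowest of the 3 groups.

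Other genes of microglia and macrophages give the setting of the 9 in Aβ against Control. Of 13 measured among 15 further genes of resting microglia, none passed in the authors' DESeq2 analysis and 3 had an unadjusted p under 0.05, with a median log2 ratio of −0.15. Next to P2ry13, the smallest p there was that of Olfml3, a secreted glycoprotein (−0.36, adjusted p = 0.315, authors' DESeq2 test). Several genes of that list, such as Sall1 and Itgb5, can also be expressed by other cells of such cultures. Of 15 measured among 18 other receptors of myeloid cells, 1 fell in the authors' DESeq2 test, and their median log2 ratio was −0.37.

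Genes shared by all myeloid cells had log2 ratios closer to 0. Among 20 such genes 1 rose and none fell in Aβ by the authors' DESeq2 test, where 21 of all 18783 genes rose. Of the 20, 10 had an unadjusted p under 0.05, and the median log2 ratio was −0.20, with 14 of 20 below 0. The gene that rose was Lyz2, the lysozyme of macrophages (0.36 in the authors' deposited table). Summed means of the 20 were 48507 in Control, 54206 in Aβ and 38519 in Aβ+DFMO, of which Lyz2 made up the greater part. Centred on the median of these 20 genes, Laptm5 was no longer called (−0.32, adjusted p = 0.0568, from the implied standard error). The part of microglial number in the falls was not tested.

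Of 19 measured among 20 genes of activated phagocytes, 5 rose in Aβ and none fell, where 21 of all 18783 genes rose. Their median log2 ratio was 0.20. The genes that rose included the elastase Mmp12 (1.89), the lysosomal glycoprotein Gpnmb (1.31), the lipid scavenger receptor Cd36 (0.88) and the galectin Lgals3 (0.73) in the authors' deposited table. Of 8 measured among 12 genes of border macrophages, which line the vessels and meninges, none passed in the authors' DESeq2 analysis and 2 had an unadjusted p under 0.05, with a median of −0.30. Smallest in p there were Dab2, an endocytic adaptor (−0.34), and F13a1, a clotting factor chain (−0.77), in the authors' deposited table. The macrophage markers Cd163, Lyve1, Cbr2 and Clec10a had no value here.

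**Figure D4:**
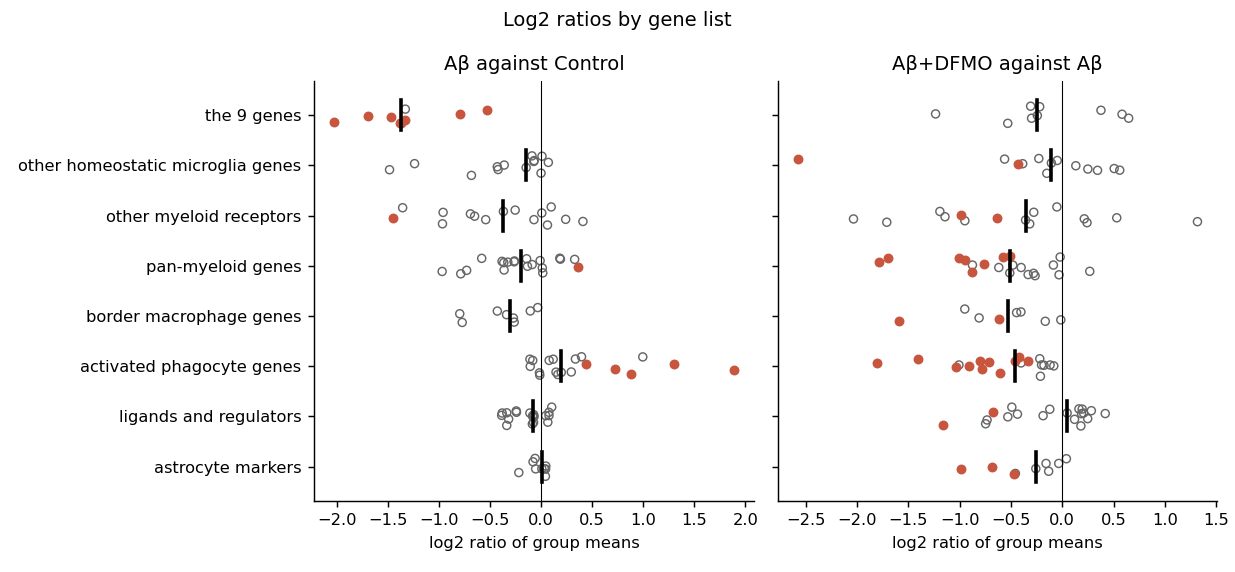
Log2 ratio of group means (x axis) of each gene by list (rows) for Aβ against Control (left) and Aβ+DFMO against Aβ (right); filled points had an adjusted p under 0.05 in the authors' DESeq2 test, and black bars are list medians. The 9 genes were picked on the left contrast (median −1.37), and pan-myeloid genes have medians of −0.20 on the left and −0.51 on the right.

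Ligands and regulators of these receptors showed no called change in Aβ. Of 19 ligands, receptors, proteases and transcription factors none passed the authors' DESeq2 test, 4 had an unadjusted p under 0.05, and the median log2 ratio was −0.08. The Csf1r ligands Csf1 and Il34 had log2 ratios of 0.10 and −0.24, and Cx3cl1, the ligand of Cx3cr1, of 0.07 in the authors' deposited table. Smallest in p were the transcription factor gene Mef2c (−0.39, adjusted p = 0.155) and the receptor gene Tgfbr2 (−0.32, adjusted p = 0.210) in the authors' DESeq2 test. Spi1 had means of 386, 308 and 89.4 and a log2 ratio of −0.33 in Aβ against Control in the authors' deposited table.

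The genes closest to the median of the 9 in both log2 ratios, by Euclidean distance among 10837 named genes with a Control mean of at least 200, were Ly86, Tnfrsf11a, Lars2, Cd52 and Gpr65. Ly86, a partner of the receptor RP105 in myeloid cells, had means of 586, 278 and 209 (distance 0.343) in the authors' deposited table. Tnfrsf11a, the receptor RANK of osteoclast precursors and macrophages, had means of 338, 164 and 179 (distance 0.492) in the authors' deposited table. Lars2, a mitochondrial leucyl-tRNA synthetase, is expressed in many cell types and had means of 35293, 20109 and 16224 (distance 0.565) in the authors' deposited table. The leukocyte antigen gene Cd52 and the proton-sensing receptor gene Gpr65 stood at distances of 0.65 and 0.684. Their log2 ratios in Aβ against Control were −0.73 and −0.69, and neither passed the authors' DESeq2 test. Cd52 is also in the pan-myeloid list and Gpr65 in that of other myeloid receptors. The likeness of the 5 genes to the 9 rests on 3 group means and 5 libraries.

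The second comparison asked what DFMO changed in Aβ-treated cultures, and it was not used to pick the genes, although it shares the Aβ libraries with the first. In the authors' DESeq2 test 0 of the 9 genes passed, where 9.18% of all genes did, and 2 of the 9, Csf1r and Laptm5, had an unadjusted p under 0.05. The median log2 ratio of the 9 was −0.24, against 0.008 over all genes. P2ry12 (0.65), Gpr34 (0.58) and Gpr84 (0.38) had log2 ratios above 0 in the authors' deposited table, 3 of 9 where 50.7% of all genes had. Csf1r had −0.53 (implied standard error 0.196, adjusted p = 0.0637, authors' DESeq2 test) and Laptm5 −0.31 (0.146, adjusted p = 0.189).

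The other members had log2 ratios of −0.30 (Tmem119), −0.24 (Cx3cr1), −0.22 (Fcrls) and −1.24 (Slco2b1) in Aβ+DFMO against Aβ, by the authors' deposited table. The 95% intervals were wide. They ran from −0.31 to 1.61 for P2ry12, from −0.27 to 1.43 for Gpr34, from −3.10 to 0.63 for Slco2b1 and from −1.54 to 2.29 for Gpr84. For P2ry12, Gpr34 and Gpr84 the interval held both 0 and a rise as large as the fall in the first comparison, so the data separate neither from the value seen.

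Few reads stood behind several of these means. In the Aβ+DFMO library 1 read was worth 7.45 normalized units, and within 0.05 of a whole read Slco2b1 had 3 reads, Tmem119 9, P2ry12 17, Gpr34 24, Fcrls 117, Cx3cr1 201 and Laptm5 300. Csf1r (131.6) and Gpr84 (3.45) were not whole. For the 17 reads of P2ry12 the exact 95% Poisson interval, which covers counting error only, was 73.8 to 203 normalized units, a range that holds the Aβ mean of 80.9 and ends below the Control mean of 209. The interval of Gpr34, 115 to 266 units, likewise held the Aβ mean of 119 and not the Control mean of 312. The 3 reads of Slco2b1 allowed 4.61 to 65.3 units, which includes the Aβ mean of 52.6. Likewise the interval held the Aβ mean for Tmem119 (30.7 to 127 units) and Fcrls (721 to 1045 units). For Cx3cr1 it was 1298 to 1720 units and for Laptm5 1990 to 2504 units, both below the Aβ mean, before any spread between libraries is counted.

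GC content moved with this comparison. Genes are not independent replicates, and as a description across 11569 genes with Control and Aβ means of at least 200, the log2 ratio of Aβ+DFMO against Aβ had a Spearman's rho of −0.71 and a Pearson's r of −0.67 with the GC content of the longest transcript. Gpr34 (37.1% GC) and P2ry12 (38.6%) had the lowest GC content of the 9 and the highest log2 ratios, whereas the other 7 lay between 48.5% and 59.1%. With the trend taken out, P2ry12 stood at 0.30, Gpr34 at 0.19, Tmem119 at 0.20, Laptm5 at 0.04 and Csf1r at −0.26, while Gpr84 rose from 0.38 to 0.66, Slco2b1 stood at −1.11, Cx3cr1 at −0.18 and Fcrls at −0.23, so that the values of Tmem119 and Laptm5 turned sign and the median of the 9 became 0.04. No member was called then either. The same relation in Aβ against Control had a rho of 0.11, and taking it out left the median of the 9 at −1.35.

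**Figure D5:**
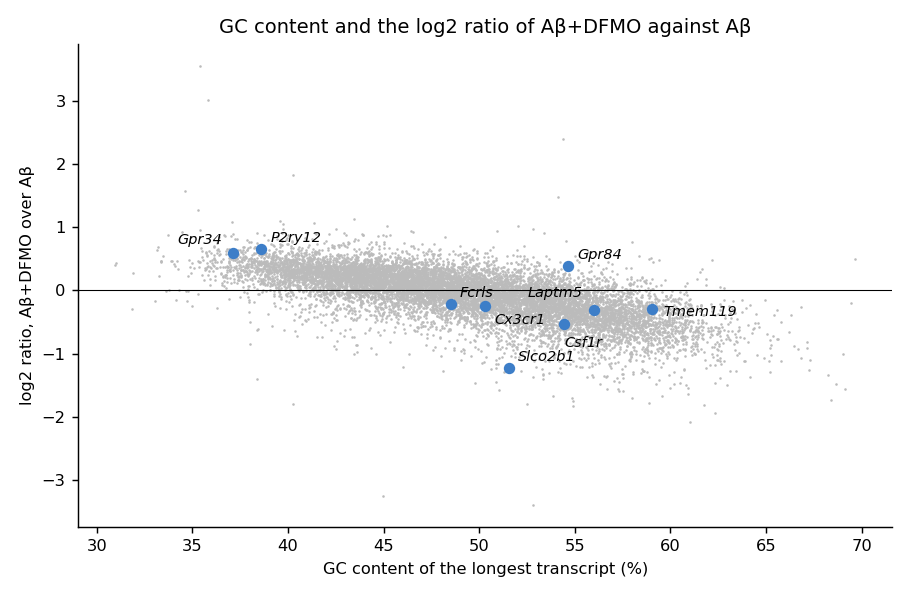
Log2 ratio of Aβ+DFMO against Aβ (y axis) against GC content of the longest transcript in percent (x axis) for 11569 genes with Control and Aβ means of at least 200 (grey) and all 9 members (blue). Gpr34 and P2ry12, at 37.1% and 38.6% GC, lie on the rising end of the trend, and Slco2b1, with 3 reads, lies below it.

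Of the 20 pan-myeloid genes 19 had a log2 ratio below 0 in Aβ+DFMO against Aβ. Of the 20 genes 8 fell and none rose in the authors' DESeq2 test, where 5.18% of all genes fell, with a median log2 ratio of −0.51. Once the GC trend was removed 5 of the 20 genes were called lower, as were 0.737% of all genes with a GC value, and their median was −0.41. They included Cd68 (−1.01), Lyz2 (−0.51) and the Fc receptor gene Fcgr3 (−0.95) in the authors' deposited table. Spi1, which encodes PU.1, fell by 1.78 in the authors' deposited table on 12 reads, and was not called with the GC trend taken out (−1.29, adjusted p = 0.196, from the implied standard error). Against the median of these 20 genes the 9 members lay at a median of 0.27. Gpr34 was then called higher (1.09, adjusted p = 0.0365, from the implied standard error). This centring raised the log2 ratio of every gene, and Csf1 (0.72), Cx3cl1 (0.56), Mef2c (0.63) and Dab2 (0.49) were then called higher too. The share of all genes called higher after it is not given here. With the GC trend taken out instead, Gpr34 stood at 0.19 and was not called.

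Among the resting microglia, receptor, border macrophage and regulator lists 2 genes each fell, where 5.18% of all genes did. Adgrg1 (−0.43) and, on 3 reads, Selplg (−2.58) fell among the 13 other genes of resting microglia in the authors' deposited table. Neither was called once the GC trend was removed, with Adgrg1 at −0.07 (adjusted p = 0.972) and Selplg at −2.53 (adjusted p = 0.170), both from the implied standard errors. C3ar1 (−0.63) and C5ar1 (−0.99), receptors of complement fragments, fell among the 15 other myeloid receptors in the authors' deposited table, and both were called with the GC trend taken out. Msr1 (−0.62) and Stab1 (−1.59), both scavenger receptor genes, fell among the 8 border macrophage genes in the authors' deposited table. Once the GC trend was removed Stab1 was not called (−1.17, adjusted p = 0.30, from the implied standard error) and Msr1 stood at −0.98. Of the 19 ligands and regulators 2 fell, among them the signalling enzyme gene Plcg2 (−1.17 in the authors' deposited table), and neither was called with the GC trend taken out. Centred on the pan-myeloid median, Adgrg1, Selplg, C3ar1, C5ar1, Msr1, Stab1 and Plcg2 were not called. None of these 4 lists held a gene that rose in the authors' test, and Csf1 was called higher once the GC trend was removed (0.47, adjusted p = 0.000523, from the implied standard error).

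Against Control, the Aβ+DFMO library had lower means for all 9 genes. No test was made of this pair, which shares the Control libraries with the first comparison. The log2 ratios of the means were −0.72 for P2ry12, −0.80 for Gpr34, −0.84 for Laptm5, −1.33 for Csf1r, −1.57 for Cx3cr1, −1.63 for Tmem119, −1.65 for Gpr84, −1.69 for Fcrls and −2.93 for Slco2b1, computed from the authors' deposited table. All 9 were under −0.5, where 18.0% of all genes were, in a single library of 4825677 reads. As the same Control means entered the choice of the genes, nothing is read from this count. With the GC trend taken out the log2 ratios of the 9 ranged from −0.49 for Laptm5 to −2.82 for Slco2b1, with P2ry12 at −1.04 and Gpr34 at −1.16. The pan-myeloid genes had a median of −0.80 in the same pair of groups.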

How the data were processed

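RNA of 2 Control, 2 Aβ and 1 Aβ+DFMO libraries of primary mouse astrocytes was analysed from tables; per the submitters' processing notes the tools were STAR 2.7.3a, Partek, DESeq2 and FastQC, and the builds mm10 and GRCm39, with no role given. The deposited table holds, per the file headers, least-squares group means (a normalized signal, scaling not named), their ratio and log2 ratio, and p-values and adjusted p-values of DESeq2 across 18783 genes; no value per library was used. The deposited ratios were checked to be ratios of the means and the adjusted p-values to follow Benjamini and Hochberg. The read total of the Aβ+DFMO library and its percent in exons come from a deposited summary, per the file headers; 4 other rows of it could not be matched to single libraries and were not used. How reads were counted, on which annotation and with which filter on low values, no source used here says.

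A gene was called where the authors' adjusted p lay under 0.05. Implied standard errors assume a Wald test and the single library is treated as varying like the others; they may be too large, as only 1.72% of p-values of Aβ against Control were under 0.05. GC and exon length came from GENCODE M21, matched by symbol for 98.3% of genes; trends were taken out with lowess (fraction 0.3, statsmodels 0.14.6) and p-values recomputed from the implied standard errors (scipy 1.17.1), code that was checked on data with known answers. Whole reads were found for 80.2% of 7242 genes under 27 reads of the Aβ+DFMO library, too few for a count test. Named genes followed this rule: all 9 members, of each myeloid list up to 4 called genes with the smallest p (or the 2 smallest where none was called) and up to 3 in the second comparison, Csf1, Il34, Cx3cl1 and Spi1, and the 5 nearest genes; host genes, P2ry14 and the promoter motifs were added later, and lists of other cell types are given as counts. Some genes that the rule selects are not reported here. Members and lists were chosen with earlier results of these data known.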

Additional observations from a re-analysis of the deposited data

How the results depend on the processing

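Only group means and the authors' p-values were at hand. No paired analysis was possible because the table gives no value per library, and leaving out each replicate was not run for the same reason. With p-values adjusted only over genes with Control and Aβ means of at least 200, 3 of the 4 members left were called in Aβ against Control, and 1, Csf1r (adjusted p = 0.0407), was called lower in Aβ+DFMO against Aβ. A threshold of 0.1 also called 1 there (Csf1r), and it called all 9 in Aβ against Control, where 0.01 called 6. The count of 8 members called in Aβ against Control stayed at 8 with the GC or exon length trend taken out (the latter chosen after seeing the data) and became 7 when centred on pan-myeloid genes. The shares of all genes called under these other thresholds and settings are not given here, so nothing is read from these counts. The median of the members in Aβ against Control was −0.99 with a pseudocount of 50 and −1.06 over the 4 members with means of at least 200 in all groups.

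Centring on the pan-myeloid median (a shift of −0.20 in the first and −0.51 in the second comparison) also changed calls. It turned the members' median in Aβ+DFMO against Aβ to 0.27 and called 1 member, Gpr34, higher, and the median against Control became −0.77. In Aβ+DFMO against Aβ it turned Tmem119 (0.21), Cx3cr1 (0.27), Fcrls (0.29), Laptm5 (0.20), Lyz2 (0.0027), Adgrg1 (0.075), Dab2 (0.49), Tgfbr2 (0.32), Ly86 (0.10), Lars2 (0.20), Cd52 (0.18) and Gpr65 (0.19) above 0, and it ended the calls of Fcgr3 (−0.44, adjusted p = 0.119), C3ar1 (−0.12, 0.516), C5ar1 (−0.48, 0.205), Msr1 (−0.11, 0.698), Stab1 (−1.08, 0.0687), Selplg (−2.07, 0.0618) and Plcg2 (−0.66, 0.142). In the same comparison it ended the call of Lgals3 (−0.28) and called Csf1 (0.72), Cx3cl1 (0.56), Mef2c (0.63) and Dab2 (0.49) higher. In Aβ against Control it turned Apoe (0.092), Msr1 (0.17) and Plcg2 (0.13) above 0. There it also called Cd68 (0.53), Csf1 (0.31) and Adgrg1 (0.27) higher. Taking out the GC trend turned the members' median in Aβ+DFMO against Aβ to 0.044, with Tmem119 at 0.20, Laptm5 at 0.044 and Mef2c at −0.17. Centring on genes with means of at least 200 turned Dab2 to 0.0047 there, and the exon length trend turned Fcgr3 to −0.0053 in Aβ against Control. The causes were not tested. Precision in Aβ+DFMO is limited by 1 library of 4825677 reads.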

Other observations

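Genes of activated phagocytes were lower in Aβ+DFMO than in Aβ. Of the 19 such genes 11 fell in the authors' DESeq2 test, where 5.18% of all genes did, with a median log2 ratio of −0.46. With the GC trend taken out 11 were called lower, as were 0.737% of all genes with a GC value. The pan-myeloid genes had a median of −0.51 in the same comparison. Medians with the GC trend taken out were −0.49 for the activated phagocyte genes and −0.41 for the pan-myeloid genes. Mmp12 had means of 921 in Control, 3410 in Aβ and 976 in Aβ+DFMO, and Gpnmb of 17328, 42816 and 20889, in the authors' deposited table. Apoe, the lipid carrier, fell by 0.91 in the authors' deposited table, and by 0.39 with the GC trend taken out and 0.40 when centred on pan-myeloid genes.

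Implied standard errors in Aβ against Control near those of Cx3cr1 (0.365) and Fcrls (0.361) were also found for Stab1 (0.379), a scavenger receptor gene, Pdgfra (0.382), a marker of oligodendrocyte precursors, and Mki67 (0.382), a gene of dividing cells. These 3 genes, with Control means of 3508, 4618 and 4551 in the authors' deposited table, were named after their values were seen.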
